A study of Mus musculus with 24 samples.

Results

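Perigonadal fat of 4 AdipoQ-LPL and 7 Control mice was compared within the 11 arrays whose animal numbers run between 842 and 877, out of 24 arrays in the series. The mice were taken by number, 2 AdipoQ-LPL and 2 Control from the run 842 to 845 and 2 AdipoQ-LPL and 5 Control from the run 871 to 877. The other 13 mice carry numbers between 289 and 437 and were left out because their arrays differ in level over most clusters. AdipoQ-LPL mice (genotype AdipoQ-LpL -/+) carry an LPL transgene under the adiponectin promoter, which is active in adipocytes, so other cells of the fat pad were not targeted. Controls (AdipoQ-LpL -/-) were littermates without the transgene. All were C57BL/6 males, entered calorimetry chambers at 9.5 weeks of age, had 10 days of a diet with 60% of calories from fat and spent the last 3 days housed singly. Each array is 1 mouse, and the values are log2 signals after RMA, 1 per transcript cluster, a probe set that stands for 1 transcript locus.

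Lipoprotein lipase splits the triglyceride of circulating lipoproteins at the vessel wall and lets adipocytes take up the released fatty acids. The perigonadal depot lies against the epididymis and is covered by mesothelium, and besides adipocytes it holds endothelium, smooth muscle, fibroblasts, macrophages and small lymphoid clusters. An RNA level in the whole pad therefore reflects all of these cells.

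Lpl is read by a pair of clusters, neither of which was called with all mice. The brighter had log2 values of 13.73, 13.84, 13.75 and 13.71 in AdipoQ-LPL mice, against 13.64 to 13.81 with a median of 13.76 in Control mice, and the groups overlapped (log2 difference 0.03, SE 0.06, p = 0.593). A second Lpl cluster, at a lower level, had 9.87, 10.06, 9.44 and 9.50 in AdipoQ-LPL mice, against 9.14 to 9.81 with a median of 9.34 in Control mice. All 4 AdipoQ-LPL mice lay above the Control mean within overlapping ranges, and the difference of 0.31 (SE 0.15, p = 0.0644) was not called. It was 0.21 (p = 0.0128) with the run of numbers as a block and 0.48 (p = 0.00580) without Control 6, 7 and 11, 3 arrays described next. Which of these clusters can read the transgene's RNA is not given in the sources used here. The 12 white adipocyte markers averaged 12.20 to 12.38 in AdipoQ-LPL mice and 12.02 to 12.39 in Control mice, so both groups read as white fat.

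3 Control arrays stood apart from the rest. Control 6, Control 7 and Control 11 had 120, 183 and 41 clusters more than 2 log2 units above the median of the other mice, and the other 8 arrays had 1 to 31. Control 6 was high in genes of male tract epithelium (Akr1b7 at 13.04, Crisp1 at 13.90) and smooth muscle (Cnn1 at 12.64, Actg2 at 11.62). These examples were chosen after their values were seen. Over 15 genes of male tract epithelium the mean level was 5.21 to 5.49 in AdipoQ-LPL mice and 5.00 to 8.61 in Control mice. The median difference of that list was -1.12 with all 11 mice and 0.01 without these 3, and none of its 15 members was called. For 19 genes of motile cilia the median difference was -0.60 with all mice and 0.12 without them, again with 0 called. In the cilia list Control 7 stood at 8.15 and Control 11 at 7.04, but Control 6, at 5.40, lay among the other mice. No AdipoQ-LPL mouse reached the level of these 3 Control mice in the first list. The counts below were therefore also made without Control 6, 7 and 11, a choice made after the data were seen. Control 9 stayed in those fits, although it stood at 6.435 in the first list, next to Control 11 at 6.48. In the list of epididymis genes Control 9 was at 6.576, against 6.387 in Control 7 and 6.081 in Control 11.

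**Figure D1:**
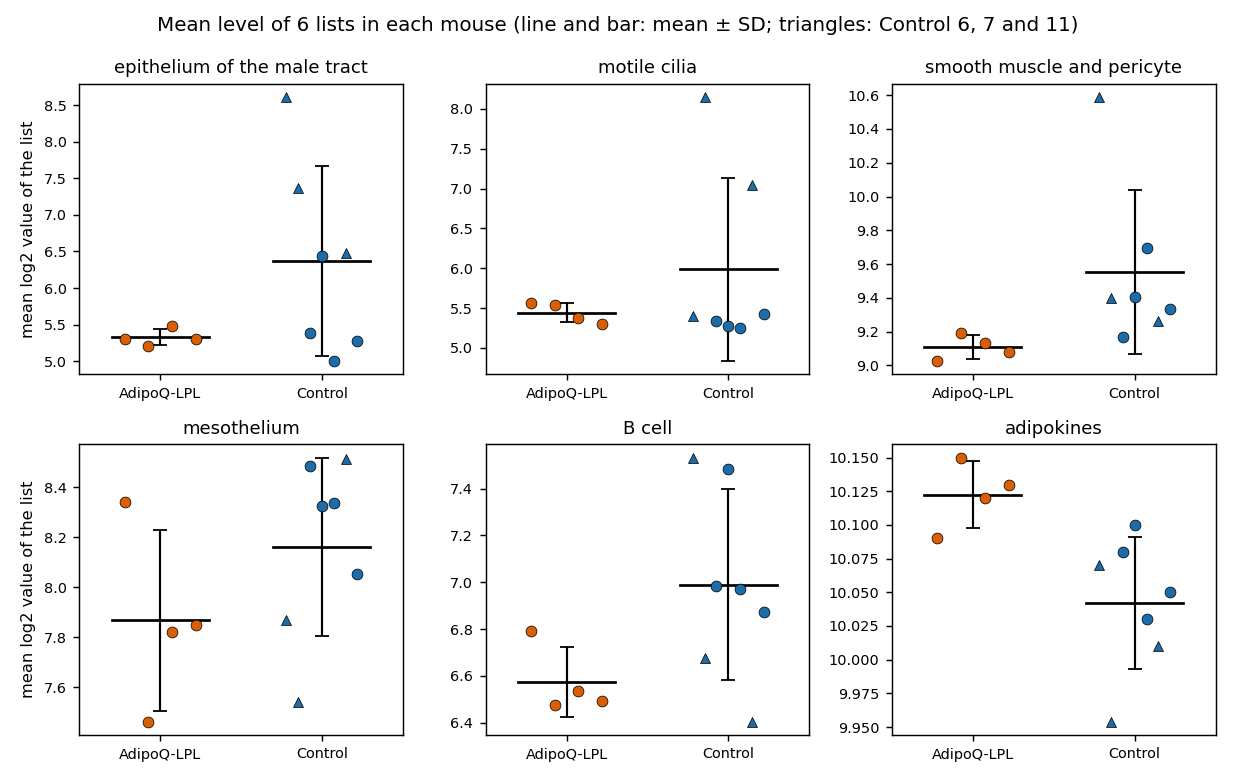
Mean log2 value of 6 gene lists in each mouse, AdipoQ-LPL left and Control right, with a line and bar for the mean ± SD and triangles for Control 6, 7 and 11. The lists of male tract epithelium and motile cilia reach 8.61 and 8.15 in Control mice and stay at or below 5.49 and 5.56 in AdipoQ-LPL mice.

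Across 21367 clusters with a gene symbol and a mean above 5 in either genotype, 1 gene passed an adjusted p of 0.05 in limma with Benjamini-Hochberg adjustment (0.00468% of those tested). That gene was Lrrc4, which was higher in AdipoQ-LPL mice. At an unadjusted p under 0.05 there were 2066 clusters, or 9.67%. The looser pair of thresholds, a log2 difference of at least 0.32 in either direction with an unadjusted p under 0.02, called 364 clusters in either direction (1.70%). 212 of them were higher in AdipoQ-LPL mice (0.992%) and 152 were lower (0.711%). In what follows, "called" means past this pair of thresholds, and such a call carries no correction for the number of clusters tested.

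The direction of the calls depended on level and on scaling. Of the 212 higher clusters 136 had a mean under 6, near the bottom of the scale, against 29 of the 152 lower ones, where 26.9% of all tested clusters lay under 6. With quantile normalization of the 11 arrays the split was 140 higher and 173 lower, so 44.7% of calls were higher in place of 58.2%. Without Control 6, 7 and 11 there were 247 higher (1.16%) and 329 lower (1.54%), and 101 of the higher and 98 of the lower were called in both fits. All 212 and all 152 kept their sign there, which was close to given, because that fit reuses mice in which these clusters were chosen. With the run of animal numbers as a block, 215 were higher and 284 lower, so that 43.1% of calls were higher. Values of the genotypes did not overlap for 234 clusters that were higher (1.10%) and for 93 that were lower (0.435%). The median difference over all clusters was 0.03.

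**Figure D2:**
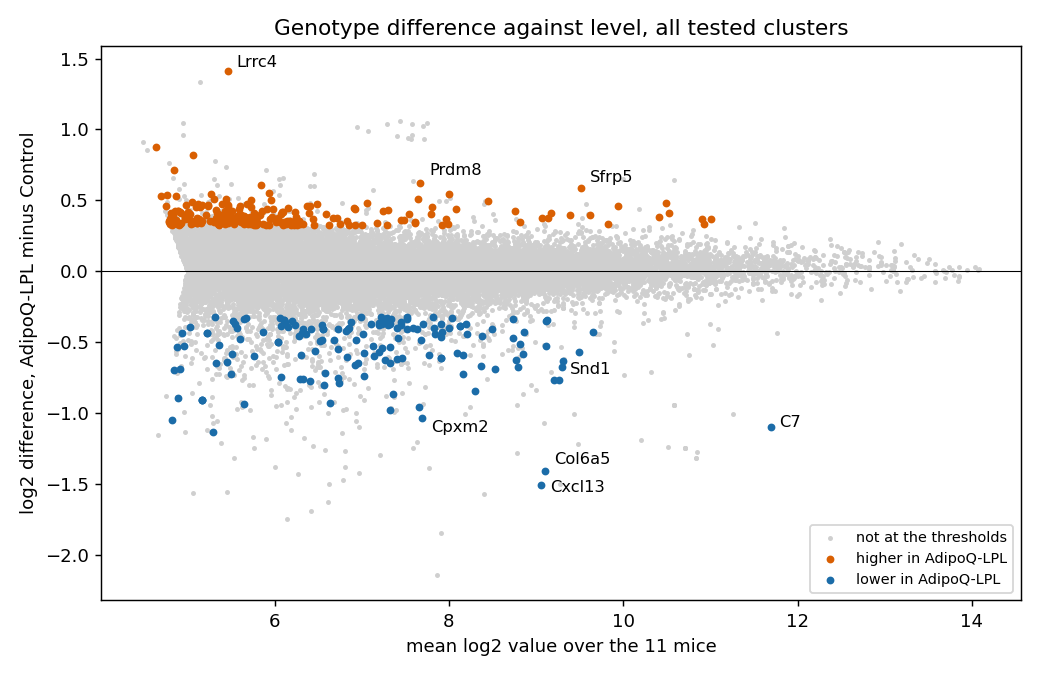
Log2 difference, AdipoQ-LPL minus Control, against mean log2 value over the 11 mice for the 21367 tested clusters, with called clusters in colour. Most of the 212 higher clusters sit below a mean of 6, and Lrrc4 at 1.41 stands above all other called clusters, while the called falls of Cxcl13, Col6a5 and C7 lie between means of 9 and 12.

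Lrrc4 encodes a leucine-rich repeat protein of synapses known from brain. Its log2 values were 6.13, 6.16, 6.65 and 6.51 in AdipoQ-LPL mice, against 4.43 to 5.23 with a median of 5.00 in Control mice. Every AdipoQ-LPL mouse lay above every Control mouse. The means were 6.36 ± 0.26 (SD, n = 4) in AdipoQ-LPL and 4.95 ± 0.26 (SD, n = 7) in Control. The difference was 1.41 (SE 0.15), or 2.66-fold, with a limma adjusted p of 0.0139 and an exact two-sided permutation p of 0.00303, the smallest that the 330 relabellings allow. It was 1.43 within the run 842 to 845 and 1.54 within the run 871 to 877. The adjusted p exceeded 0.05 when single mice were dropped in 5 of 11 cases, at 0.0942 without AdipoQ-LPL 3, 0.121 without AdipoQ-LPL 4, 0.0558 without Control 9, 0.0572 without Control 10 and 0.0510 without Control 11, with the difference at 1.32 to 1.49 over the 11 cases. Without Control 6, 7 and 11 together it was 1.31, with an adjusted p of 0.0711.

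Snd1, the gene within which Lrrc4 lies on the opposite strand, went the other way. It encodes a nuclease with staphylococcal-type domains that works in RNA processing and as a transcriptional coactivator. Snd1 had 8.64, 9.10, 8.83 and 8.87 in AdipoQ-LPL mice, against 9.34 to 9.77 with a median of 9.53 in Control mice. The groups did not overlap. Its means were 8.86 ± 0.19 (SD, n = 4) in AdipoQ-LPL and 9.54 ± 0.16 (SD, n = 7) in Control, a difference of -0.68 (SE 0.10). The limma p was 2.82e-05 before adjustment and 0.150 after it, and the exact two-sided permutation p was 0.00303. The difference was -0.85 within the run 842 to 845 and -0.62 within the run 871 to 877. Among 24 tested genes within 1 Mb of Lrrc4, Snd1 and Lrrc4 themselves were the only ones called. Lep, the leptin gene nearby, differed by 0.11 (p = 0.172).

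The start regions of these neighbours are shown because both genes changed in opposite directions at 1 locus. They come from RefSeq (GRCm38.p6), 5′ to 3′ on each gene's own strand, with the GC box GGGCGG in capitals.
Lrrc4, chr6:28831698-28831997, minus strand: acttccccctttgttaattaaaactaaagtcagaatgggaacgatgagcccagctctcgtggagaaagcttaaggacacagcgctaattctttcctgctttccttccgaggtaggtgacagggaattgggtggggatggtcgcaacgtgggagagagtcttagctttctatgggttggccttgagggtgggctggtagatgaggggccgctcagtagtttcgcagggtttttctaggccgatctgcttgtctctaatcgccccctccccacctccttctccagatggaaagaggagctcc
Snd1, chr6:28480098-28480397, plus strand: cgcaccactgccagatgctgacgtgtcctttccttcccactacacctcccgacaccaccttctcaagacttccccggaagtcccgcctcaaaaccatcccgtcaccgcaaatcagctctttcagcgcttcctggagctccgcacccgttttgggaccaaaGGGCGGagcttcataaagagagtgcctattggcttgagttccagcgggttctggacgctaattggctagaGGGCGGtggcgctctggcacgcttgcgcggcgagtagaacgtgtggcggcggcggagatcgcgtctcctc
The Snd1 window holds 25 CpG and 2 GC boxes and the Lrrc4 window 10 CpG and 0 GC boxes. On either strand, the GC box occurs in 35.7% of 32851 promoter windows of this length. The sterol element SRE-1 occurs in 0.234% of them and TATAAA in 13.6%, and neither is in these windows. CCAAT occurs in 37.4%, with 2 matches at Snd1 and 1 at Lrrc4.

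8 further genes called higher had varied roles and means of 5 to 7. Bcmo1, which cleaves beta-carotene to retinal, had 5.78, 5.69, 5.73 and 5.57 in AdipoQ-LPL mice, against 5.11 to 5.36 with a median of 5.24 in Control mice (difference 0.47, SE 0.07, p = 2.18e-05). Foxl2, a forkhead factor known from ovary, had 6.48, 6.53, 6.34 and 6.41 in AdipoQ-LPL mice, against 5.84 to 6.20 with a median of 5.98 in Control mice (0.44, SE 0.07, p = 6.91e-05). Ankrd1, a cardiac ankyrin-repeat protein and a target of YAP, had 6.60, 6.54, 6.32 and 6.49 in AdipoQ-LPL mice, against 5.98 to 6.19 with a median of 6.15 in Control mice (0.38, SE 0.07, p = 0.000122). None of these 3 overlapped between genotypes, and all had means under 7. The T-box factor Tbx5 differed by 0.51 (p = 0.000479) with values that met at 5.36, and Cyb5r2, a cytochrome b5 reductase, by 0.40 without overlap. Plac1, known from placenta, differed by 0.54, the lens crystallin Cryba4 by 0.37 and the epithelial cytokine Il17c by 0.55. All 8 kept their call when any single mouse was left out. Ankrd1, Cryba4 and Il17c were not called within the run 871 to 877 alone, nor Tbx5 and Plac1 within the run 842 to 845 alone. Their adjusted p values lay between 0.150 and 0.395, and Ankrd1, Tbx5 and Foxl2, like Snd1, passed 0.05 in 1 of the alternatives run, a fit whose spread came from all 24 mice.

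Sfrp5, a secreted Wnt antagonist that marks expanding adipocytes, had 10.12, 9.64, 10.04 and 9.75 in AdipoQ-LPL mice, against 8.71 to 10.03 with a median of 9.24 in Control mice. Control 7, at 10.03, lay among the AdipoQ-LPL values and the other Control mice were at or below 9.56. The difference was 0.59 (SE 0.20, p = 0.0125), and 0.69 (p = 0.000121) without Control 6, 7 and 11. Leaving out AdipoQ-LPL 1 or 3 or Control 8, 9, 10 or 12 singly ended the call, with differences of 0.51 to 0.58 and p of 0.0207 to 0.0437, as did the run as a block (0.58, p = 0.0207).

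Dact1, which binds the Wnt mediator dishevelled and was chosen after its values were seen, had 8.90, 8.85, 8.55 and 8.74 in AdipoQ-LPL mice, against 7.84 to 8.53 with a median of 8.26 in Control mice. The groups did not overlap (difference 0.50, SE 0.12, p = 0.00116). Dact1 differed by 0.85 within the run 842 to 845 and by 0.29 within the run 871 to 877, where it was not called (p = 0.025). Its relative Dact2 differed by 0.51 (p = 0.0053), with AdipoQ-LPL 3 at 7.44 inside the Control range, and lost the call without AdipoQ-LPL 1 (0.41, p = 0.0243) or AdipoQ-LPL 4 (0.44, p = 0.0218). Dkk3, of the dickkopf family of secreted proteins, was lower without overlap (-0.34, p = 0.00039) and fell under the difference of 0.32 without AdipoQ-LPL 2 (-0.31) or Control 7 (-0.31). Ror1, a receptor for Wnt5a, was lower in all 4 AdipoQ-LPL mice than in any Control mouse, at 7.66, 7.49, 7.59 and 7.50, against 7.72 to 8.29 with a median of 8.00 in Control mice (-0.45, SE 0.10, p = 0.000928).

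Genes of the adipocyte itself moved little. Of 14 adipokines tested 0 were called, 12 lay above 0 and the median difference was 0.11, against 0.03 for all clusters. Adipoq, adiponectin, had 11.87, 11.77, 11.85 and 11.91 in AdipoQ-LPL mice, against 11.48 to 11.90 with a median of 11.75 in Control mice, and the difference of 0.16 was not called (p = 0.0941). Of 10 markers of expanding fat pads, 1 was called higher (Sfrp5) and 0 lower, with 9 above 0 and a median of 0.14. Without Control 6, 7 and 11, 3 were called higher, where 1.16% of all clusters were. All 12 white adipocyte markers were above 0, by at most 0.16, with 0 called and a median of 0.06 that became 0.00 without Control 6, 7 and 11.

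Of 20 adipogenic transcription factors 2 were called lower (10%) and 0 higher, against 0.711% of all clusters called lower. The list's median was 0.09. The called ones were Klf5, a zinc finger factor of early adipogenesis, and Nr2f2, the nuclear receptor COUP-TFII. Klf5 had 6.49, 6.46, 6.52 and 6.40 in AdipoQ-LPL mice, against 6.65 to 7.14 with a median of 6.88 in Control mice (-0.41, SE 0.09, p = 0.000917). Nr2f2 had 8.14, 7.88, 8.26 and 8.09 in AdipoQ-LPL mice, against 8.30 to 8.90 with a median of 8.50 in Control mice (-0.46, SE 0.12, p = 0.00208). Neither gene overlapped between genotypes, and both stayed called in every fit without 1 mouse. Within the run 871 to 877 alone neither was called (Klf5 -0.38, p = 0.0246, and Nr2f2 -0.33, p = 0.0708). Pparg, the main adipogenic factor, differed by 0.13 (p = 0.0545).

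Further calls at middle or high level were spread over unrelated functions. Prdm8, a PR-domain factor, had a difference of 0.62 (p = 0.00788). It was 0.50 (p = 0.0348) without AdipoQ-LPL 1 and 0.59 (p = 0.0231) without AdipoQ-LPL 2, neither called. Nor was it called without Control 6, 7 and 11 (0.50, p = 0.0317). Within the run 842 to 845 it was 1.22, and within the run 871 to 877 it was 0.25 (p = 0.258), not called. Efhd1, a calcium-binding mitochondrial protein, differed by 0.54 (p = 0.00172). Selenbp1, which oxidises methanethiol, was the brightest of these at 10.13, 9.91, 10.11 and 10.02 in AdipoQ-LPL mice, against 9.54 to 9.87 with a median of 9.74 in Control mice, without overlap (0.33, p = 0.0019). It lay just past the difference of 0.32 and dropped under it without AdipoQ-LPL 1 or 3 or Control 6, 7 or 12 (0.30 to 0.32), and without Control 6, 7 and 11 together (0.26). Egln3, an oxygen-sensing prolyl hydroxylase, was lower by -0.55 on the log2 scale (p = 0.000486) and was the only 1 of 21 hypoxia genes called.

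**Figure D3:**
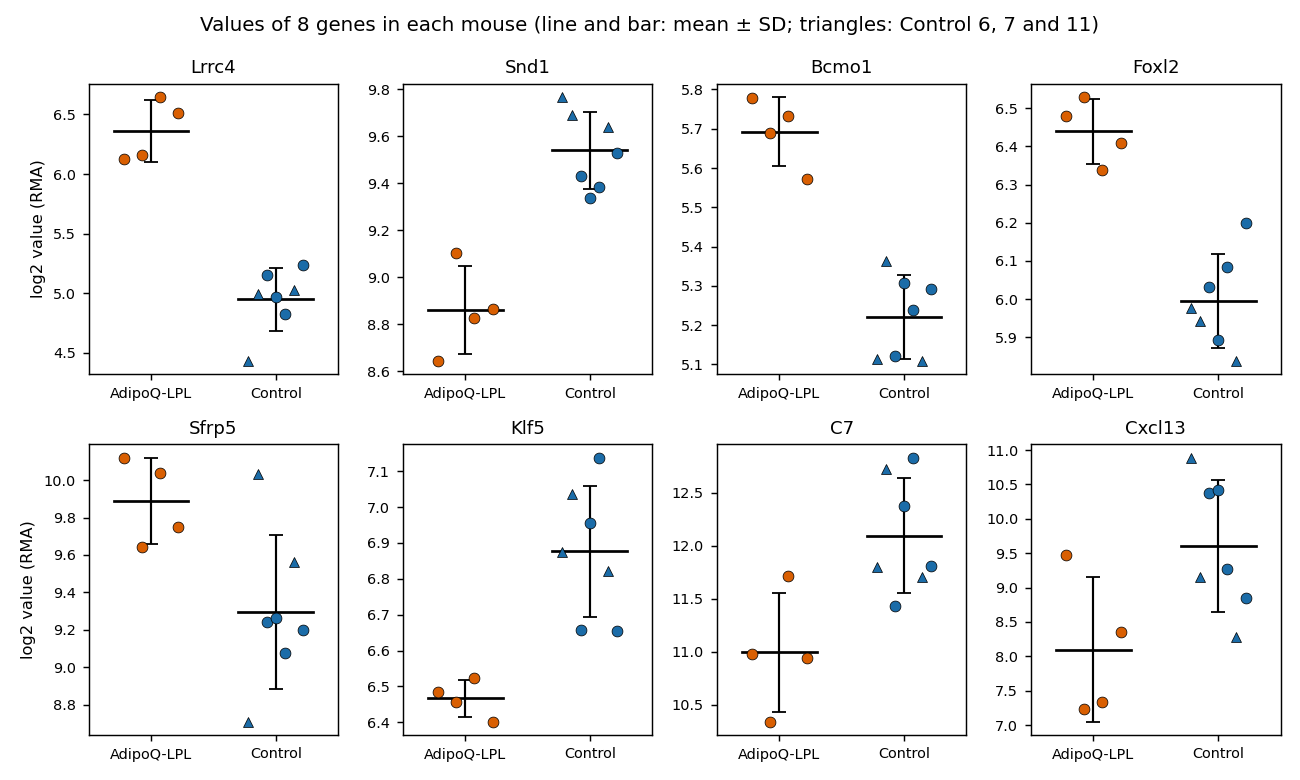
Log2 values of 8 genes in each mouse, AdipoQ-LPL left and Control right, with a line and bar for the mean ± SD and triangles for Control 6, 7 and 11. Lrrc4, Snd1, Bcmo1, Foxl2 and Klf5 do not overlap between genotypes, and Sfrp5, C7 and Cxcl13 do.

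Lipid pathways showed no called gene with all mice. For 20 genes of cholesterol synthesis the median difference was 0.04, 14 were above 0 and 0 were called, and their mean level was 8.39 to 8.95 in AdipoQ-LPL mice and 8.45 to 8.85 in Control mice. The median was 0.14 without Control 6, 7 and 11, again with 0 called. Insig1, which retains the sterol sensor in the endoplasmic reticulum, had 11.21, 12.60, 12.22 and 11.56 in AdipoQ-LPL mice, against 11.47 to 12.29 with a median of 11.93 in Control mice, a difference of 0.05 (SE 0.24, p = 0.854). The AdipoQ-LPL mice thus spanned more than the whole Control range. Fatty acid synthesis (22 genes, median -0.02), triglyceride synthesis (15, 0.06), fatty acid oxidation (24, 0.06), PPARG targets (20, 0.04) and lipoprotein handling (20, 0.03) each had 0 called with all mice. So had lipolysis (17, 0.05). The lowest gene of fatty acid synthesis lay at -1.07. Without Control 6, 7 and 11, fatty acid synthesis and lipolysis each had 1 gene called lower, and the other lists named here had 0 called.

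Mitochondrial genes lay mostly above 0 and those of the cytosolic ribosome mostly below, under each scaling run, with 0 members called. Of 58 genes of oxidative phosphorylation 49 were above 0 with a median of 0.05, and of 76 genes of the mitochondrial ribosome 61 were above 0 with a median of 0.05. Of 76 genes of the cytosolic ribosome 57 were below 0 with a median of -0.05. The array medians were 7.08 to 7.11 in AdipoQ-LPL mice and 7.10 to 7.14 in Control mice (exact two-sided permutation p = 0.0212), and the part of that shift in these small differences was not tested.

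**Figure D4:**
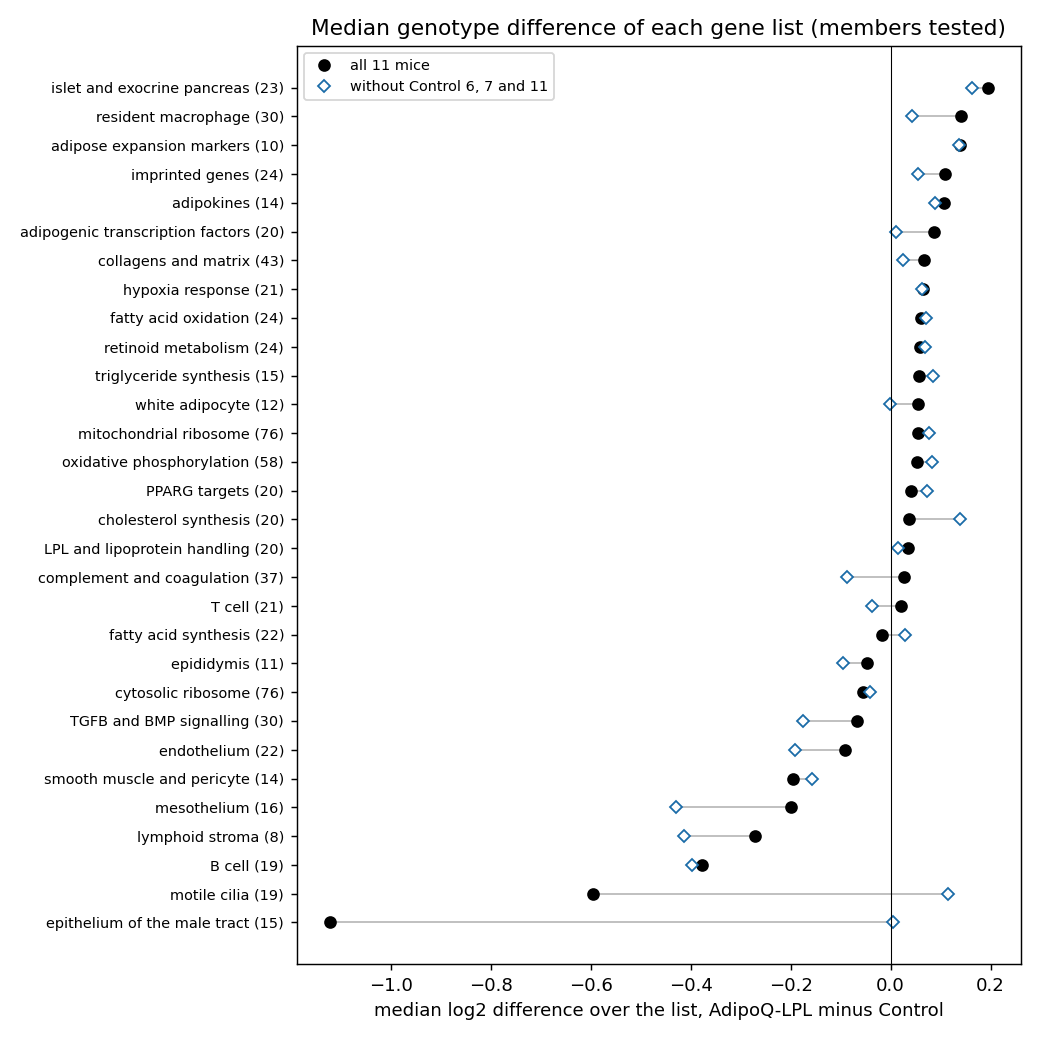
Median log2 difference, AdipoQ-LPL minus Control, over each gene list with the number of members tested, for all 11 mice (dots) and without Control 6, 7 and 11 (diamonds). The lists of male tract epithelium and motile cilia move to near 0 without these mice, while B cell, lymphoid stroma and mesothelium are then between -0.40 and -0.43.

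The falls that follow were in single genes. Of 20 genes of adipose stromal fibroblasts 0 were called and the median was 0.02. Of 43 collagens and matrix genes 1 was called higher and 0 lower, with a median of 0.07. That list does not hold the collagen gene Col6a5, described below, which was called lower. In a whole pad, fewer cells of a type and less RNA per cell cannot be told apart. C7, a late component of complement, had 10.98, 10.34, 11.71 and 10.94 in AdipoQ-LPL mice, against 11.43 to 12.83 with a median of 11.81 in Control mice. Only AdipoQ-LPL 3 lay inside the Control range (difference -1.10, SE 0.30, p = 0.00335), and the call held without any 1 mouse. The difference of C7 was -1.60 within the run 842 to 845 and -0.70 within the run 871 to 877, where it was not called (p = 0.0949). C6, its partner in the membrane attack complex, differed by -0.43 (p = 0.0114), and its call was lost without AdipoQ-LPL 3 (-0.39, p = 0.0370), AdipoQ-LPL 4 (-0.33, p = 0.0495) or Control 9 (-0.40, p = 0.0225), or without Control 6, 7 and 11 together (-0.44, p = 0.0351). These were the 2 called of 37 genes of complement and coagulation (5.41%), against 0.711% of all clusters called lower. The median of that list was 0.03.

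Col6a5, a collagen VI chain, had 8.18, 7.69, 9.05 and 7.91 in AdipoQ-LPL mice, against 8.77 to 10.91 with a median of 9.59 in Control mice (difference -1.41, SE 0.42, p = 0.00582). AdipoQ-LPL 3 lay again inside the Control range, and the call was lost without AdipoQ-LPL 2 (-1.24, p = 0.0233). The difference was -1.77 (p = 0.00295) without Control 6, 7 and 11. 3 further falls were, like that of C7, larger within the run that holds Control 6 and Control 7. Fgfr2, a receptor for fibroblast growth factors, differed by -0.87 overall (p = 0.00646), by -1.85 within 842 to 845 and by -0.28 within 871 to 877. Nt5e, the ecto-nucleotidase CD73, gave -0.98 overall (p = 0.00700), -1.93 and -0.42 in the same order of runs, and Cpxm2, a carboxypeptidase-like protein, -1.04 overall (p = 0.00901) and -0.44 within 871 to 877. The list of male tract epithelium stood at 8.61 in Control 6 and 7.37 in Control 7, and its part in these results was not tested. Leaving out Control 6, 7 and 11, Fgfr2 gave -0.56 (p = 0.0222), Nt5e -0.66 (p = 0.0378) and Cpxm2 -0.77 (p = 0.0526), none of them called. Leaving out AdipoQ-LPL 1 ended the call for Fgfr2 (-0.80) and Cpxm2 (-0.88), and leaving out AdipoQ-LPL 2 ended it for Fgfr2 (-0.72), Nt5e (-0.78) and Cpxm2 (-0.96).

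Mir200b, the locus of an epithelial microRNA, was called lower, with 4.72, 5.08, 5.15 and 5.25 in AdipoQ-LPL mice, against 5.09 to 6.90 with a median of 6.05 in Control mice (-0.94, SE 0.29, p = 0.00700). Control 7, at 6.90, and Control 6, at 6.37, were the highest, and without Control 6, 7 and 11 the difference was -0.52 (p = 0.0251), not called. It was not called without AdipoQ-LPL 1 either (-0.83, p = 0.0268). The array's probes read the hairpin locus rather than a mature arm. Both arms are shown, with the seed in capitals, as this is the microRNA family tied to epithelial cells.
mmu-miR-200b-3p: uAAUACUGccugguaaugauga
mmu-miR-200b-5p: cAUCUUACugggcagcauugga
The first seed is shared with mmu-miR-200c-3p and mmu-miR-429-3p (RefSeq). Of 298 clusters of microRNAs 13 were called lower (4.36%) and 5 higher (1.68%), against 0.711% and 0.992% of all clusters. Of the 13, 8 were clusters named Mir669k that hold 5 distinct sets of values.

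Bcam, a laminin receptor, had 8.95, 8.89, 8.92 and 8.80 in AdipoQ-LPL mice, against 9.05 to 9.38 with a median of 9.30 in Control mice, without overlap (-0.35, SE 0.07, p = 0.000423). Its difference was no longer past the threshold without AdipoQ-LPL 4 (-0.32). Slc9a3r1, the membrane scaffold NHERF1, was lower without overlap (-0.45, p = 0.000859). Control 11, 7 and 6 were its 3 highest mice, at 8.63, 8.54 and 8.46, and without them it was not called (-0.31). Krt19, a simple-epithelial keratin, was lower (-0.53, p = 0.0116), and its call was lost without AdipoQ-LPL 2, 3 or 4 or Control 8 or 11 (-0.39 to -0.55, p 0.0207 to 0.0512), or without Control 6, 7 and 11 together (-0.37, p = 0.0624). Control 6 was its highest mouse, at 7.83.

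All 16 mesothelial genes tested lay below 0, with a median of -0.20, and Krt19 alone was called. Their mean level was 7.46 to 8.34 in AdipoQ-LPL mice and 7.54 to 8.51 in Control mice, so the groups overlapped nearly throughout. Without Control 6, 7 and 11 the median was -0.43 and 4 were called lower, where 1.54% of all clusters were. Control 7 and Control 6 were the lowest Control mice of this list, at 7.542 and 7.87, and Control 11 the highest, at 8.514. Of 14 smooth muscle and pericyte genes 12 lay below 0 with a median of -0.20 and 0 called. Their mean was 9.03 to 9.19 in AdipoQ-LPL mice and 9.17 to 10.59 in Control mice, with Control 6 the highest. Tagln, an actin-binding protein of smooth muscle, did not overlap between genotypes (-0.94, p = 0.0352) but missed the threshold of 0.02, and Cnn1, calponin, differed by -2.14 (p = 0.0348) with Control 6 at 12.64. Without Control 6 alone both were called, at -0.65 (p = 0.0121) for Tagln and -1.48 (p = 0.00992) for Cnn1.

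Few lymphoid genes passed the thresholds, and those that did were lower in AdipoQ-LPL mice. Cxcl13, the chemokine that draws B cells into follicles, had 9.47, 7.23, 7.33 and 8.36 in AdipoQ-LPL mice, against 8.29 to 10.89 with a median of 9.27 in Control mice. AdipoQ-LPL 2 and 3 lay below every Control mouse and the others within their range (difference -1.51, SE 0.54, p = 0.0162). It was the 1 called of 8 genes of lymphoid stroma, and the call was lost without AdipoQ-LPL 2, 3 or 4 or Control 6, 8, 9 or 10 (-1.22 to -1.59, p 0.0202 to 0.0619). Ccl19, a chemokine for T cells and dendritic cells, differed by -0.44 (p = 0.0551) at its brightest cluster, and by -0.60 (p = 0.0300) without Control 6, 7 and 11. The other tested Ccl19 clusters, some with the same means, were all lower too, from -0.21 (p = 0.312) to -0.89 (p = 0.0255). None of them was called.

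Of 19 B cell genes 18 lay below 0, with a median of -0.38 against 0.03 for all clusters, and 1 was called. That was Spib, an Ets factor of B cells, at 5.39, 5.07, 4.68 and 5.01 in AdipoQ-LPL mice, against 4.91 to 6.26 with a median of 6.02 in Control mice (-0.73, SE 0.25, p = 0.0137). The groups overlapped through Control 7 and Control 11, at 4.91 and 5.16. Its call was lost without AdipoQ-LPL 2, 3 or 4 or Control 6, 8, 9, 10 or 12 (-0.61 to -0.74, p 0.0233 to 0.0508), and with the run as a block (-0.73, p = 0.0203). Ms4a1, which encodes CD20, had 5.94, 5.44, 5.47 and 5.49 in AdipoQ-LPL mice, against 5.55 to 8.31 with a median of 6.73 in Control mice, and was not called with all mice (-1.18, p = 0.0230). Without Control 7 it was (-1.36, p = 0.00846), as it was without Control 11 (-1.38, p = 0.00673). Cd79b, a chain of the B cell receptor, differed by -0.55 (p = 0.0225) and was called without AdipoQ-LPL 4 (-0.64, p = 0.0191), Control 7 (-0.66, p = 0.00392) or Control 9 (-0.42, p = 0.0177).

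The B cell list stayed at a median of -0.40 without Control 6, 7 and 11, and 9 of its 19 members were then called lower, where 1.54% of all clusters were. Of the mice left out, Control 11 and Control 7 were the lowest Control mice of this list, at 6.405 and 6.676. The larger number of calls is therefore no independent check of the first fit. Mean levels of the list were 6.48 to 6.79 in AdipoQ-LPL mice and 6.41 to 7.53 in Control mice, with overlap. Clusters of immunoglobulin segments had a median of -0.62, and 1 of 38 was called lower. In contrast the 21 T cell genes had a median of 0.02 and 0 called. Among them Cd3e (-0.35, p = 0.0247), Cd4 (-0.37, p = 0.0444) and Icos (-0.18, p = 0.0480) were lower at an unadjusted p under 0.05. Thy1, also listed for stromal fibroblasts, was higher (0.25, p = 0.0293). The 30 genes of resident macrophages had a median of 0.14 and 1 called higher, Fcrls, an Fc receptor-like scavenger receptor (0.37, p = 0.0128). That call was lost without AdipoQ-LPL 1, 2 or 4 or Control 6, 7, 11 or 12 (0.32 to 0.37, p 0.0201 to 0.0463), and without Control 6, 7 and 11 (0.26, p = 0.0766), where the list's median was 0.04.

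Genes of the islet and exocrine pancreas had the highest median of the lists shown. Of 23 tested, 20 lay above 0, the median was 0.19 and 2 were called higher, with mean levels of 6.23 to 6.48 in AdipoQ-LPL mice and 6.09 to 6.23 in Control mice. Of the 23, 10 had an unadjusted p under 0.05, against 9.67% of all clusters. The 2 calls are 8.70% of the list, against 0.992% called higher among all clusters. That share was 0.667% among clusters with a mean of 6 to 8, where Slc2a2 and Cela1 lay. It was 2.37%, with a median difference of 0.08, among clusters with a mean under 6, where members such as Nkx2-2 lay. Slc2a2, the glucose transporter GLUT2, had 6.77, 6.94, 6.70 and 7.23 in AdipoQ-LPL mice, against 6.35 to 6.71 with a median of 6.46 in Control mice (0.38, SE 0.11, p = 0.00589), and lost its call without AdipoQ-LPL 4 (0.27, p = 0.0252). Cela1, an elastase, had 8.04, 8.47, 7.97 and 7.92 in AdipoQ-LPL mice, against 7.37 to 8.05 with a median of 7.54 in Control mice (0.45, SE 0.14, p = 0.00849), and lost it without AdipoQ-LPL 2 (0.33, p = 0.0382).

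The same genotype difference was read in the other 13 mice, of which 2 AdipoQ-LPL and all 5 Control carry numbers 289 to 295 and the other 6 AdipoQ-LPL mice numbers 422 to 437. Genotype and number run therefore largely cannot be told apart there, and differences within 289 to 295, added after the data were seen, are given beside the main ones. Lrrc4 differed by 0.98 over the 13 mice (p = 2.25e-07) and by 1.06 within 289 to 295 (p = 0.000983). Snd1 differed by -0.68 (p = 3.5e-09) and by -0.61 (p = 7.7e-05). Both had the direction seen in the 11 mice. Of the 212 higher clusters 142 (67.0%) lay above 0 there, against 49.3% of all tested, but 7 (3.30%) were higher at p under 0.05, against 3.49% of all. Of the 152 lower clusters 78 (51.3%) lay below 0, against 50.7% of all, and 3 (1.97%) were lower at p under 0.05, against 3.77%. Besides Lrrc4 and Snd1 the 10 were Plac1 (0.25), Selenbp1 (0.21) and, named after their values were seen, Olfr1077-ps1, Vsx1, A730090N16Rik and Gm15455 among the higher and Gimap9 and Slc9a2 among the lower.

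Other described genes differed less there. Over the 13 mice Bcmo1 differed by -0.03, Foxl2 by 0.01, Klf5 by -0.04 and Sfrp5 by 0.09, and within 289 to 295 by -0.06, 0.07, -0.21 and 0.09 in the same order. Ror1 gave 0.20 (p = 0.0488) and 0.16 (p = 0.223), opposite in sign to the 11 mice. C7 gave 0.16 over the 13 mice and -0.18 within the run, and Cxcl13 0.55 and -0.15, so their sign there depended on the run. Insig1 was lower over the 13 mice (-0.93, p = 0.000421) and gave -0.79 (p = 0.0832) within 289 to 295, where the 11 mice gave 0.05.

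Lists can be set side by side in the same way, with the 13 mice first and the run 289 to 295 after. The median was 0.34 and 0.26 for resident macrophages, 0.02 and 0.08 for islet and exocrine pancreas, 0.13 and 0.03 for B cells, 0.30 and 0.53 for mesothelium and -0.38 and -0.31 for cholesterol synthesis. Resident macrophages thus had the sign of the 11 mice, and B cells and mesothelium the opposite one.

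The difference between the sets was tested itself, in a limma fit of all 24 mice that leaves out the number runs. No cluster passed an adjusted p of 0.05 with all mice, the lowest being 0.237, and 1699 (7.95%) had an unadjusted p under 0.05. Ror1 had p = 0.000132 for that difference and Insig1 p = 0.00796, both with an adjusted p of 0.592. When Control 6, 7 and 11 were left out, 6 clusters passed, namely Ror1 (adjusted p 0.0367), BC021785, Trim34b and 3 clusters of LOC100503226 with 1 set of values.

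**Figure D5:**
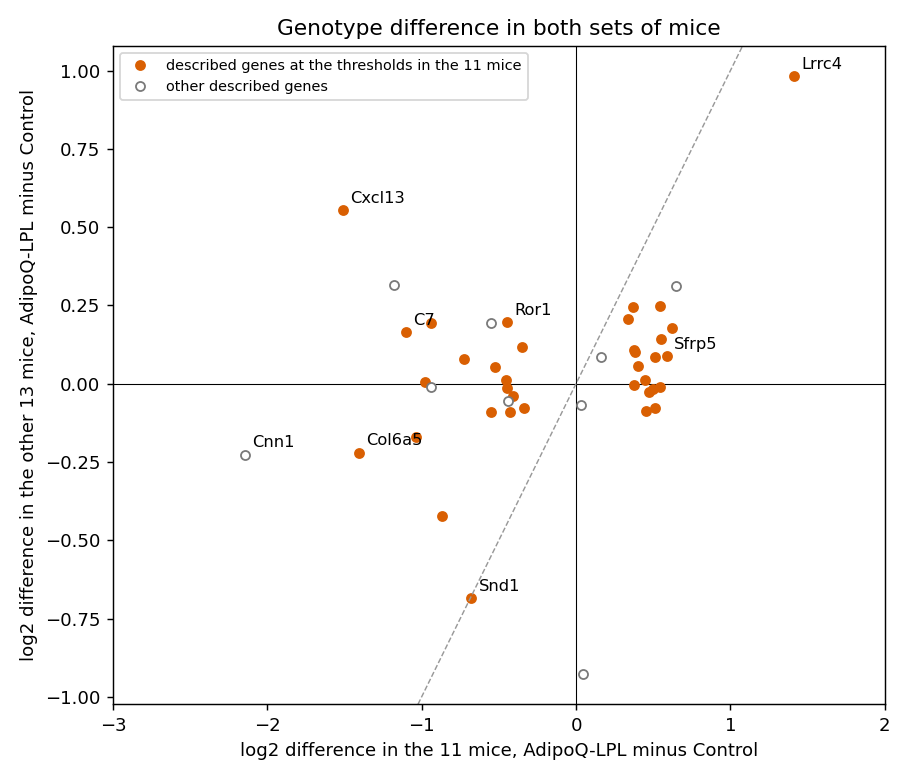
Log2 difference, AdipoQ-LPL minus Control, in the other 13 mice against the same in the 11 mice for the 45 genes described or checked, with a dashed line of equality. Lrrc4 and Snd1 lie far from 0 on both axes, at 0.98 and -0.68 in the other mice, and most of the other called genes lie within 0.25 of 0 in the other 13 mice.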

How the data were processed

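RNA of perigonadal fat was hybridised to 1 Affymetrix array per mouse. The deposited log2 values, 1 per transcript cluster, had been normalized with RMA by the authors, whose processing notes also name Partek. For the genome build, annotation release and RMA version, each is not given in the sources used here. A second deposited table, from the authors, supplied gene symbols, and its log2 means of each genotype were used to check that cluster IDs pair the tables. Its p-values, ratios and fold changes compare all 24 mice and were not used, nor were the tables of the smallest p-values and of alternative splicing.

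Of 41345 clusters 27037 carry a symbol, and the 21367 with a mean log2 value above 5 in either genotype (19691 genes) were tested. AdipoQ-LPL minus Control was fitted over the 11 mice with limma 3.58.1 in R 4.3.3 (lmFit, eBayes), with Benjamini-Hochberg adjustment over all 21367, and the exact permutation tests were two-sided over all 330 relabellings. The difference between the sets of mice came from a fit of 4 groups over 24 mice, which lets each set keep its own level. The scripts were tested on simulated data. Figures used matplotlib 3.10.9 under Python 3.11.15.

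Genes of a list were read at their brightest tested cluster. The described genes are clusters past the adjusted threshold, those of lowest p or largest difference among called clusters, up to 4 genes of lowest p per list and genes the study discusses, and a few others marked as chosen after their values were seen. The mice, the 62 gene lists and the rules were chosen with earlier results of these data known, and the lists of motile cilia and male tract epithelium were added after the values were seen. Each sample is a separate mouse. The number of arrays limits the precision. Alternatives changed the floor, the test, the prior, array weights, scaling and the mice.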

Additional observations from a re-analysis of the deposited data

Results flagged for a closer look

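Of 152 groups of values checked for a mouse far from the rest of its genotype, 7 had one, and chance gives about 1 in 20 groups. Among AdipoQ-LPL mice, AdipoQ-LPL 1 was high for Ms4a1 at 5.943, with the next mouse at 5.493, and low for Cnn1 at 6.028, with the next at 6.619. The same mouse was low for the mean of the lymphoid stroma list at 7.182, with the next at 7.613, although its Cxcl13 was the highest of the 4. AdipoQ-LPL 2 was low for the white adipocyte list at 12.20, with the next at 12.35. AdipoQ-LPL 3 was high for the epididymis list at 5.858, with the next at 5.687. Among Control mice, Control 6 was high for the smooth muscle and pericyte list at 10.59, with the next at 9.696, and Control 12 was high for fatty acid oxidation at 9.76, with the next at 9.635.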

How the results depend on the processing

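No paired analysis was possible because the 11 mice share no replicate number between genotypes. The count at an adjusted p under 0.05 was 1 with all mice, 0 by the methods' t-test, 0 without Control 6, 7 and 11, 11 within the run 842 to 845 (all lower, against Control 6 and Control 7 alone, with Pax8 and Cdh1 among them), 5 in the fit of all 24 mice and 0 to 1 when single mice were left out. The count of called clusters was 364, against 222 with a floor of 6, 60 at 1.5-fold, 993 within the run 842 to 845, 576 without Control 6, 7 and 11 and 279 to 549 when single mice were left out, the extremes being without AdipoQ-LPL 2 and AdipoQ-LPL 3. The floor and the fold remove clusters by construction, and for the others the cause was not tested. Clusters whose difference differed between the sets of mice numbered 0 with all mice, 6 without Control 6, 7 and 11 and 0 in each fit without 1 mouse. The uncalled difference of the brighter Lpl cluster, 0.03, was -0.013 within the run 842 to 845, and that of Insig1, 0.05, was -0.016 with the run as a block, -0.29 within the run 842 to 845 and -0.19 to 0.27 when single mice were left out. Of the 36 described genes that were called, 29 kept the call by the methods' t-test, 34 with quantile normalization, 26 without Control 6, 7 and 11, 13 within the run 871 to 877 and 24 within the run 842 to 845, and none changed sign in any of these. These fits reuse the mice in which the genes were chosen, so a kept sign is no independent check. Small differences at the bottom of the array's scale and in lists whose levels overlap between genotypes are the limit of 4 against 7 arrays.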

Other observations

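Clusters for olfactory receptors gave 10 called higher of 201 tested (4.98%) and 0 lower, with a median difference of 0.10 at a median level of 5.46. The share called higher was 0.992% among all clusters and 2.37% among those with a mean under 6. Vomeronasal receptors gave 2 higher and 1 lower of 53. In contrast, among 1495 clusters with a mean over 10, 6 were called higher and 1 lower. Of 14308 clusters without a gene symbol 8821 had a mean above 5 in either genotype, and 103 of these were called higher (1.17%) and 253 lower (2.87%), with 0 at an adjusted p under 0.05 (limma, lowest 0.167).

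Imprinted genes had a median difference of 0.11, with 20 of 24 above 0 and 0 called. Peg3, a paternally expressed zinc finger gene, had 10.93, 11.02, 11.07 and 10.96 in AdipoQ-LPL mice, against 9.18 to 10.82 with a median of 10.54 in Control mice. The groups did not overlap, but the difference of 0.65 (SE 0.26, p = 0.0278, limma) missed the threshold, and it was 0.45 (p = 0.00490) without Control 12, the lowest mouse. Of 30 genes of TGFB and BMP signalling 22 lay below 0 with a median of -0.07 and 1 called lower, and of 22 endothelial genes 16 lay below 0 with a median of -0.09 and 0 called.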
